A study of Petunia x hybrida with 12 samples.

Results

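Ammonium transporters are membrane proteins of the AMT/MEP/Rh family that carry ammonium into plant cells. The genes described here are those whose InterPro annotation in the gene tables of petunia holds the ammonium transporter family entry or the ammonium transporter domain, and which reached a mean of 10 or more reads in 1 or more of the 4 groups of root libraries. Of 32928 gene models, 12 carried such an entry and 10 of these reached the limit. The annotation describes 2 of the 10 as ammonium transporter 1, 7 as ammonium transporter 2, and 1 short gene model only as a putative ammonium transporter.

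RNA was sequenced from roots of petunia (*Petunia hybrida*) in 12 libraries. The groups were *ram1-2* roots inoculated with the arbuscular mycorrhizal (AM) fungus *Rhizophagus irregularis*, *ram1-2* control roots, W115 wild type roots inoculated with the same fungus, and W115 control roots, each with 3 replicates. All roots were harvested 15 days after inoculation, from plants moved at 4 weeks of age to sand with unfertilized soil. *RAM1* encodes a GRAS transcription factor needed for the development of arbuscules. The mutant was a single allele, its background relative to W115 is not given in the labels, and effects of the allele and of the line cannot be told apart. The study compared the groups to find genes whose induction in mycorrhizal roots depends on *RAM1*. Nitrogen in the weekly nutrient solution was nitrate, as KNO3 (0.75 mM) and Ca(NO3)2 (1.52 mM), with ammonium only as ammonium molybdate (0.03 µM).

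In plants, the AMT1 type takes up ammonium from the soil across the plasma membrane of root cells. The AMT2 type is a separate branch of the family, and in *Medicago truncatula*, soybean and *Lotus japonicus* some of its members are expressed in cortex cells with arbuscules, the branched fungal structures at which the fungus delivers phosphate and nitrogen to the plant. Ammonium taken up is built into glutamine by glutamine synthetase, and transport at the membrane around the arbuscule is driven by a proton gradient made by H+-ATPases.

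The libraries held 7152267 to 13391147 counted reads. *RAM1* itself (Peaxi162Scf00420g00650.1) had 6.06, 8.62 and 8.32 CPM (reads per library size, adjusted with TMM factors) in mycorrhizal *ram1* roots, at most 0.328 CPM in *ram1* control roots, 115.1, 109 and 128 CPM in mycorrhizal W115 roots and at most 0.335 CPM in W115 control roots, so it separated the genotypes in mycorrhizal but not in control roots. In a principal component analysis, *ram1* control replicate 3 and *ram1* mycorrhizal replicate 1 lay away from their own groups on components 3 and 4 (6.80% and 2.84% of the variance), and calls of the ammonium transporter genes that change without them are given with their values. Genes of the photosynthetic apparatus that mark leaf tissue had a summed RPKM of 61.2 to 69.3 in mycorrhizal *ram1* roots, 48.5 to 60.1 in *ram1* control roots, 102.6 to 168.1 in mycorrhizal W115 roots and 44.1 to 56.3 in W115 control roots, with 22 to 36 of the 60 genes at 0. The 14 genes that mark root tissue, of the Casparian strip and root hairs, summed to 215 to 301 RPKM in mycorrhizal *ram1* roots, 354 to 481 in *ram1* control roots, 293 to 361 in mycorrhizal W115 roots and 382 to 559 in W115 control roots. Their summed RPKM was lower in mycorrhizal than in control roots of both genotypes without overlap, and at most 1 of the genes was at 0 in a library. As a share of all counted reads they overlapped in W115, with 0.0514% to 0.0558% in mycorrhizal and 0.0493% to 0.0615% in control roots. The part of both lists in the results was not tested.

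In W115, 6 of the 7 genes described as ammonium transporter 2 and the short putative gene were higher in mycorrhizal than in control roots. A gene of the AMT1 type was lower, and the other 2 genes did not pass the test. Of the 10 ammonium transporter genes, 7 were higher and 1 was lower in mycorrhizal than in control roots at an adjusted p below 0.05 (edgeR quasi-likelihood test, Benjamini-Hochberg over 22954 tested genes), against 12.6% of all tested genes higher and 9.14% lower. The median log2 fold change of the 10 genes was 6.32, against 0.00 over all tested genes. However, 5 of the 10 reached the limit of reads in mycorrhizal W115 roots and in no control group, so they entered because they were high there and their count carries no further evidence. Among the 5 that reached it in a control group, 2 were higher and 1 was lower, and the percentages for all genes with that property were 11.3% and 9.43%. In *ram1*, 2 of the 10 genes were higher and 0 were lower in mycorrhizal roots, against 4.91% and 5.17% of all tested genes. Both of the called genes reached the limit in a control group, where 4.25% of all genes were called higher and 5.32% lower.

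The difference between the responses of the genotypes, tested as the interaction of genotype and fungus, was called for 5 of the 10 genes, 1 with a higher and 4 with a lower response in *ram1*, against 4.04% and 5.17% of all tested genes (9.21% in either direction). Among the 5 genes that reached the limit in a control group, 1 had a higher and 2 had a lower response, and the other 2 calls were of genes that entered through mycorrhizal W115 roots.

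**Figure D1:**
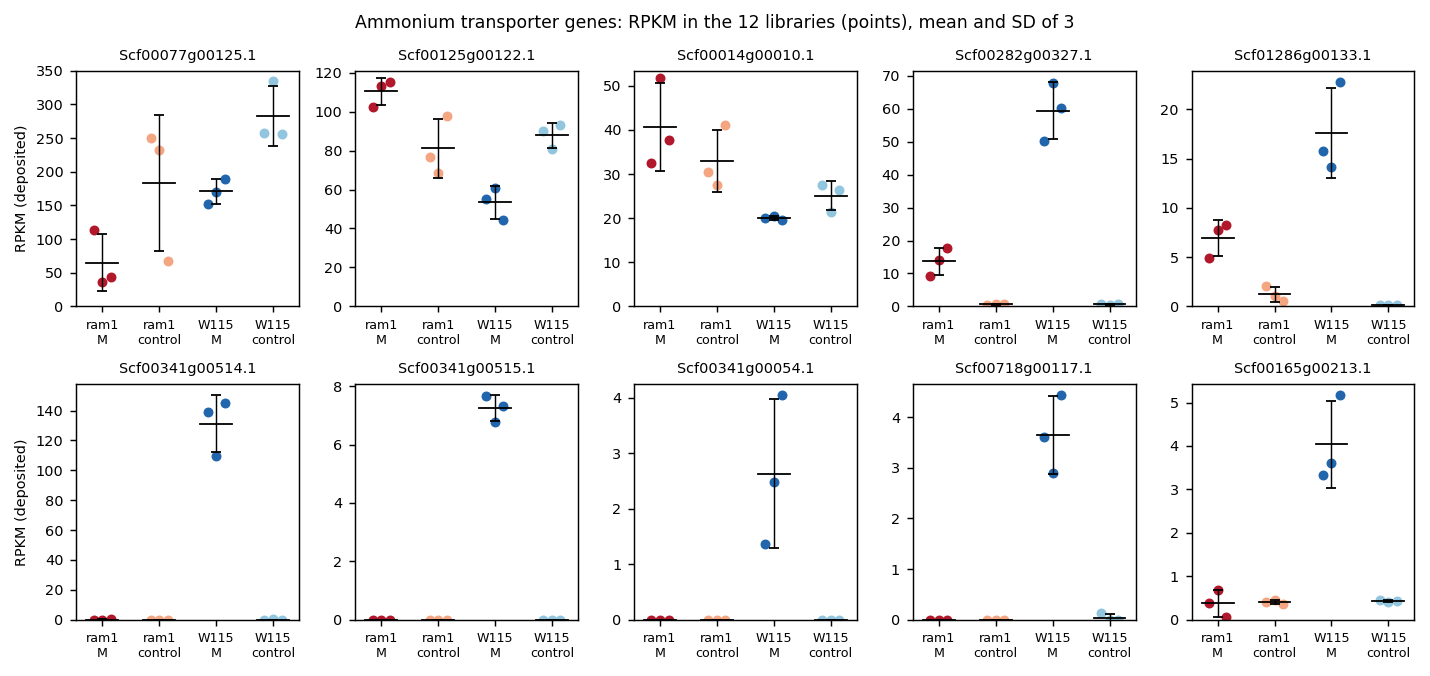
RPKM as deposited (y axis, linear, from 0, with its own scale in each panel) of the 10 ammonium transporter genes in the 12 libraries; points are libraries, the horizontal line is the mean and the bar the SD of 3 replicates, and M stands for mycorrhizal. In the lower row, the 5 genes that reached the limit of reads only in mycorrhizal W115 roots are near 0 in the other 3 groups; in the upper row, Peaxi162Scf00282g00327.1 and Peaxi162Scf01286g00133.1 also rise in mycorrhizal *ram1* roots.

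The gene with the highest level among those of the AMT2 type was Peaxi162Scf00341g00514.1, the AMT2 of the study. It had 1, 0 and 2 reads in mycorrhizal *ram1* roots, 1, 0 and 1 reads in *ram1* control roots, 2103, 1827 and 2530 reads in mycorrhizal W115 roots, and 0, 2 and 1 reads in W115 control roots. Mycorrhizal W115 roots thus held nearly all of its reads, with every library of the other groups at 2 reads or fewer. The mean was 179.9 ± 23.2 CPM in mycorrhizal W115 roots and 0.0819 ± 0.0838 CPM in W115 control roots (SD, n = 3 each), a ratio of 2221 with a 95% counting interval of 759.7 to 10773 (adjusted p = 9.35e-09, edgeR). Between the mycorrhizal groups, it was lower in *ram1* than in W115 by a factor of 1859 (635.9 to 9018, adjusted p = 1.28e-08, edgeR). With 3 reads in mycorrhizal and 2 reads in control *ram1* roots, a response in *ram1* was not detectable at this depth, and the difference between the 2 responses passed the test (adjusted p = 0.00849, edgeR), although not without *ram1* control replicate 1 (adjusted p = 0.0603). Counting intervals cover counting error only. In whole roots, fewer colonized cells and less RNA per cell cannot be told apart. Per the paper, inoculation was through nurse plants, with the aim of a similar extent of colonization in both genotypes. The part of colonization in this difference was not tested.

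A further 3 genes had reads almost exclusively in mycorrhizal W115 roots. Peaxi162Scf00341g00515.1, which follows AMT2 in the numbering of the same scaffold, had 79, 77 and 87 reads there and 0 in each of the other 9 libraries. Its level was at least 83.5-fold higher in mycorrhizal than in control W115 roots (adjusted p = 0.000347, edgeR) and at least 69.9-fold lower in mycorrhizal *ram1* than in mycorrhizal W115 roots (adjusted p = 0.00015), with the groups at 0 set to 3 reads over the group. All its reads were unique to it, and AMT2 exceeded it by 18.2, 16.2 and 19.8 times in RPKM in the 3 mycorrhizal W115 libraries, so the 2 neighbours kept a similar proportion. The putative transporter Peaxi162Scf00341g00054.1, a model of 330 bases with the same scaffold number, had 5, 10 and 17 reads in mycorrhizal W115 roots and 0 elsewhere. It was at least 11.0-fold higher than in W115 control roots (adjusted p = 0.0166, edgeR) and, with a mean of 10.7 reads, lay just inside the limit. This call was lost without W115 mycorrhizal replicate 2 (adjusted p = 0.0569).

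Peaxi162Scf00718g00117.1, an AMT2-type gene that also carries the Rhesus ammonium transporter entry, had 53, 47 and 75 reads in mycorrhizal W115 roots, 2, 0 and 0 reads in W115 control roots and none in *ram1*. The ratio within W115 was 90.3, with a counting interval of 24.6 to 751 (adjusted p = 0.000795, edgeR), and it was at least 50.4-fold lower in mycorrhizal *ram1* than in mycorrhizal W115 roots (adjusted p = 0.000248). For these last 3 genes the interaction of genotype and fungus gave an adjusted p of 0.9999 in edgeR, since both *ram1* groups were at 0, whereas limma-voom gave 6.45e-05 for Peaxi162Scf00341g00515.1, 0.0109 for Peaxi162Scf00341g00054.1 and 0.00318 for Peaxi162Scf00718g00117.1. DESeq2 gave 0.000937 for Peaxi162Scf00341g00515.1 and 0.0239 for Peaxi162Scf00718g00117.1, and returned no adjusted p for Peaxi162Scf00341g00054.1. The call of a different response thus depended on the method for genes without reads in *ram1*.

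Peaxi162Scf00165g00213.1, also of the AMT2 type with the Rhesus entry, was detected at a low level in all groups. It had 0.541, 0.990 and 0.0904 CPM in mycorrhizal *ram1* roots, 0.574, 0.616 and 0.519 CPM in *ram1* control roots, 4.79, 5.2 and 7.10 CPM in mycorrhizal W115 roots, and 0.650, 0.586 and 0.626 CPM in W115 control roots. Only mycorrhizal W115 roots stood above the other groups, which overlapped each other. The log2 fold change between mycorrhizal and control roots was 3.18 ± 0.42 (SE, adjusted p = 0.000333, edgeR) in W115. In *ram1* it was -0.19 ± 0.53 (adjusted p = 0.844, edgeR), and the difference of the responses (*ram1* minus W115) was -3.36 ± 0.68 (adjusted p = 0.0126).

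Induction was retained in part in *ram1* for 2 genes of the AMT2 type. Peaxi162Scf00282g00327.1 had 13.8, 20.9 and 25.9 CPM in mycorrhizal *ram1* roots, 0.738, 1.23 and 1.04 CPM in *ram1* control roots, 76.1, 102.5 and 86.7 CPM in mycorrhizal W115 roots, and 1.14, 0.670 and 1.1 CPM in W115 control roots. The control groups overlapped, and each mycorrhizal group lay above both of them without overlap, *ram1* below W115. The log2 fold change was 4.31 ± 0.29 in *ram1* (adjusted p = 7.22e-06, edgeR) and 6.49 ± 0.30 in W115 (adjusted p = 5.69e-08), and the difference of the responses was -2.18 ± 0.43 (adjusted p = 0.0108, and 0.0588 in limma-voom). In mycorrhizal roots the gene was lower in *ram1* than in W115, with a log2 fold change of -2.13 (adjusted p = 2.14e-05, edgeR).

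Peaxi162Scf01286g00133.1 was the other of these genes and the one called between the genotypes without the fungus. It had 7.15, 11.5 and 11.9 CPM in mycorrhizal *ram1* roots, 3.03, 1.46 and 0.816 CPM in *ram1* control roots, 23.5, 21.0 and 32.3 CPM in mycorrhizal W115 roots, and 0.244, 0.167 and 0.157 CPM in W115 control roots. No 2 of the groups overlapped. The log2 fold change between mycorrhizal and control roots was 2.52 ± 0.38 in *ram1* (adjusted p = 0.00383, edgeR, and 0.0572 with only the 6 *ram1* libraries in the fit) and 7.0 ± 0.51 in W115 (adjusted p = 2.79e-06), a difference of -4.48 ± 0.68 (adjusted p = 0.00307). Part of that difference lay in the controls, since *ram1* control roots exceeded W115 control roots by 3.14 ± 0.60 on the log2 scale (adjusted p = 0.00199, edgeR), on 67 reads over the 3 *ram1* and 7 over the 3 W115 libraries. In mycorrhizal roots it was lower in *ram1* than in W115, with a log2 fold change of -1.34 (adjusted p = 0.00598, edgeR). Of the 10 genes it was the only one called between the control groups, against 36.3% of all tested genes.

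**Figure D2:**
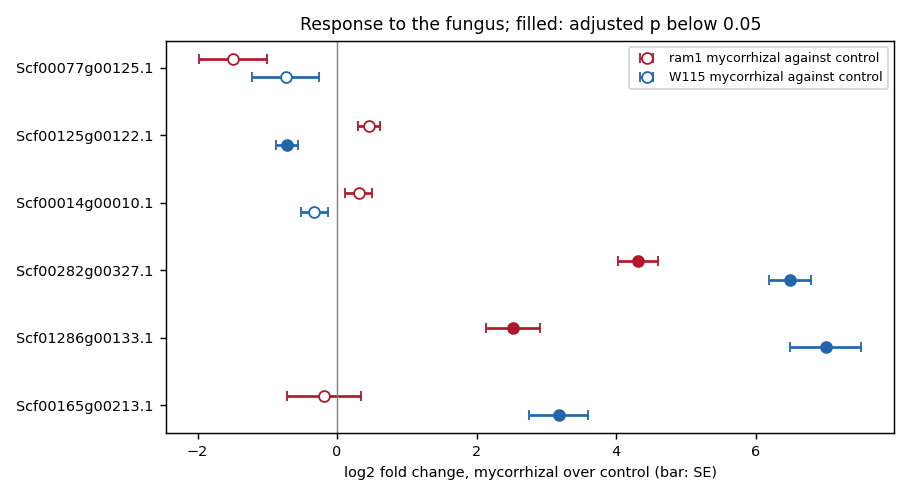
Log2 fold change of mycorrhizal over control roots (x axis; bars are SE) in *ram1* and in W115 for the 6 ammonium transporter genes with more than 3 reads in every group; filled points passed the test at an adjusted p below 0.05. The 2 genes with a partial response in *ram1*, Peaxi162Scf00282g00327.1 and Peaxi162Scf01286g00133.1, have filled points in both genotypes, and Peaxi162Scf00125g00122.1 lies at -0.72 in W115 and at 0.46 in *ram1*.

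The remaining 3 genes, the 2 of the AMT1 type and Peaxi162Scf00014g00010.1 of the AMT2 type with the Rhesus entry, were expressed in control roots. The AMT1-type gene Peaxi162Scf00125g00122.1, whose best hit in Arabidopsis is AT4G13510.1, had 151, 169 and 168 CPM in mycorrhizal *ram1* roots, 114, 99.0 and 143 CPM in *ram1* control roots, 82.7, 91.6 and 63.6 CPM in mycorrhizal W115 roots, and 132.8, 119.9 and 139 CPM in W115 control roots. In W115 it fell with the fungus, by 0.72 ± 0.16 on the log2 scale (adjusted p = 0.00753, edgeR). In *ram1* all mycorrhizal libraries lay above all control libraries, with a log2 fold change of 0.46 ± 0.16 that did not pass the test (adjusted p = 0.0827, edgeR) unless *ram1* control replicate 3 was left out (0.61, adjusted p = 0.023), alone or with *ram1* mycorrhizal replicate 1 (0.67, adjusted p = 0.0172). The 2 responses differed by 1.17 ± 0.22 (adjusted p = 0.00898), and in mycorrhizal roots the gene was higher in *ram1* than in W115 by 1.04 ± 0.16 (adjusted p = 0.000301).

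Peaxi162Scf00014g00010.1 likewise had its highest mean in mycorrhizal *ram1* roots and its lowest in mycorrhizal W115 roots. It had 47.2, 75.9 and 54.0 CPM in mycorrhizal *ram1* roots, 44.2, 39.0 and 59.0 CPM in *ram1* control roots, 29.7, 30.3 and 27.5 CPM in mycorrhizal W115 roots, and 39.7, 31.1 and 38.8 CPM in W115 control roots. The 2 *ram1* groups overlapped, and in W115 the lowest control library was only just above the highest mycorrhizal one. Neither response passed the test, with log2 fold changes of 0.31 ± 0.19 in *ram1* (adjusted p = 0.294, edgeR) and -0.32 ± 0.19 in W115 (adjusted p = 0.268), and the interaction had an adjusted p of 0.168. Without both libraries that stood apart, the response in *ram1* (0.64, adjusted p = 0.0268) and the interaction (0.96, adjusted p = 0.0179) passed the test. In mycorrhizal roots the gene was higher in *ram1* than in W115 by 1.01 ± 0.19 on the log2 scale (adjusted p = 0.00133, edgeR).

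The other AMT1-type gene, Peaxi162Scf00077g00125.1 (best hit AT1G64780.1), had the highest level of the family in W115 control roots and varied most among the *ram1* libraries. It had 171, 56.4 and 64.8 CPM in mycorrhizal *ram1* roots, 379, 342 and 101 CPM in *ram1* control roots, 235, 261 and 278 CPM in mycorrhizal W115 roots, and 389.9, 508 and 391 CPM in W115 control roots. In *ram1* the groups overlapped, because mycorrhizal replicate 1 was the highest and control replicate 3 the lowest of its group, and these are the libraries that stood apart. In W115 all mycorrhizal libraries lay below all controls. The log2 fold change was -1.49 ± 0.49 in *ram1* (adjusted p = 0.0734, edgeR) and -0.74 ± 0.48 in W115 (adjusted p = 0.312), and neither passed the test. Without *ram1* mycorrhizal replicate 1 the value in *ram1* was -2.17 (adjusted p = 0.0144), without *ram1* control replicate 3 it was -1.88 (adjusted p = 0.0118). Without both it was -2.57 (adjusted p = 1.91e-05), with an interaction of -1.84 (adjusted p = 0.000611). With only the 6 W115 libraries in the fit the W115 difference passed the test (-0.74, adjusted p = 0.00824), as it did without both of the *ram1* libraries (adjusted p = 0.00278). Between the control groups, all *ram1* libraries lay below all W115 libraries. The log2 fold change of -0.65 there did not pass the test (adjusted p = 0.322, edgeR). In mycorrhizal roots the gene was lower in *ram1* than in W115, with a log2 fold change of -1.40 ± 0.49 (adjusted p = 0.0312, edgeR), a call that was lost on leaving out *ram1* mycorrhizal replicate 2 (adjusted p = 0.104), *ram1* mycorrhizal replicate 3 (0.104), or W115 mycorrhizal replicate 1 (0.0515), 2 (0.0643) or 3 (0.0683). All 10 genes were called between the mycorrhizal groups, 2 higher and 8 lower in *ram1*, against 26.7% and 26% of all tested genes. Of the 8 that were lower, 5 entered because they reached the limit in mycorrhizal W115 roots, the group they are compared with. Among the 5 genes that reached it in a control group 2 were higher and 3 lower.

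Set against each other per transcript length, the genes had different orders in the 4 groups. In mycorrhizal *ram1* roots Peaxi162Scf00125g00122.1 led with 110.3 ± 7.06 RPKM, above Peaxi162Scf00077g00125.1 with 64.6 ± 42.3 and Peaxi162Scf00014g00010.1 with 40.7 ± 9.99 (SD, n = 3 each). The first of these neighbours overlapped in their ranges of libraries, with 113.3 RPKM for the highest library of Peaxi162Scf00077g00125.1, and so did the second. In mycorrhizal W115 roots the order was Peaxi162Scf00077g00125.1 with 170.8 ± 18.5 RPKM, AMT2 with 131.3 ± 19.0, Peaxi162Scf00282g00327.1 with 59.5 ± 8.74 and Peaxi162Scf00125g00122.1 with 53.4 ± 8.33, where the last of these pairs overlapped and the others did not. In both control groups the order was Peaxi162Scf00077g00125.1, Peaxi162Scf00125g00122.1 and Peaxi162Scf00014g00010.1, with 183.2 ± 100.9, 81.1 ± 15.1 and 33.0 ± 7.09 RPKM in *ram1* and 283.1 ± 44.7, 87.9 ± 6.38 and 25.1 ± 3.28 RPKM in W115. The first 2 of these overlapped in *ram1* and not in W115, and the third lay below the others without overlap in both.

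The sum of RPKM over the 10 genes was 263, 225 and 223 in mycorrhizal *ram1* roots, 360.04, 331 and 208 in *ram1* control roots, 449, 458 and 503 in mycorrhizal W115 roots, and 377, 438 and 377 in W115 control roots. Mycorrhizal W115 roots had the highest sums, with no overlap with the other groups, and the *ram1* groups overlapped. The share of the sum taken by the 8 genes not described as AMT1 was 26.6 ± 7.76% in mycorrhizal *ram1* roots, 12.96 ± 6.59% in *ram1* control roots, 52.3 ± 2.23% in mycorrhizal W115 roots and 6.72 ± 1.39% in W115 control roots (SD, n = 3 each). AMT2 alone took 27.9 ± 3.60% of the sum in mycorrhizal W115 roots.

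**Figure D3:**
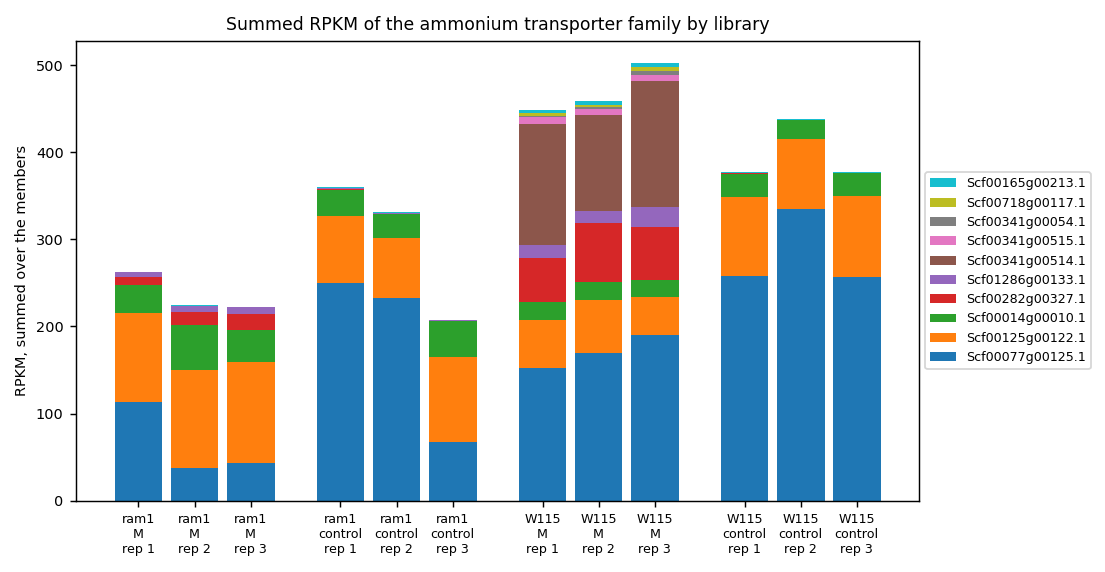
RPKM of the 10 ammonium transporter genes summed for each library (y axis, linear, from 0); each bar is 1 library, colours mark the genes in the order of the legend, and M stands for mycorrhizal. The AMT1-type genes at the base of the bars make up most of the sum in control roots, and AMT2 and Peaxi162Scf00282g00327.1 are visible blocks in the 3 mycorrhizal W115 libraries.

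Genes known for functions in arbuscules had the following levels beside the transporters. The phosphate transporter gene *PT4* averaged 6.91 CPM in mycorrhizal *ram1* roots, 4.38 CPM in *ram1* control roots, 606 CPM in mycorrhizal W115 roots and 13.2 CPM in W115 control roots. *RAM2*, which encodes a glycerol-3-phosphate acyltransferase, averaged 0.545 CPM in mycorrhizal *ram1* roots and 288 CPM in mycorrhizal W115 roots, with 0 in both control groups. The half-size ABC transporter gene *STR* (Peaxi162Scf00282g00221.1), whose ID has the scaffold number of Peaxi162Scf00282g00327.1, averaged 8.36 CPM in mycorrhizal *ram1* roots, 0.0794 CPM in *ram1* control roots, 209 CPM in mycorrhizal W115 roots and 0.0819 CPM in W115 control roots. Its log2 fold change was 6.52 ± 0.74 in *ram1* (adjusted p = 0.000473, edgeR) and 11.15 ± 0.66 in W115 (adjusted p = 5.03e-07). In *ram1*, *PT4* did not pass the test (0.63 ± 0.63, adjusted p = 0.522), whereas *RAM2* (adjusted p = 0.0395, on a group at 0) and both *STR2* genes, Peaxi162Scf00286g00240.1 (2.94 ± 0.73, adjusted p = 0.0333) and Peaxi162Scf00378g00624.1 (4.10 ± 0.54, adjusted p = 0.00141), passed it. The calls of *RAM2* and Peaxi162Scf00286g00240.1 were lost without *ram1* mycorrhizal replicate 3 (adjusted p = 0.0792 and 0.0695) or *ram1* control replicate 1 (0.0962 and 0.116) or 2 (0.0869 and 0.0858). That of *RAM2* was also lost without W115 mycorrhizal replicate 1 (0.0647), 2 (0.0662) or 3 (0.0576). That of Peaxi162Scf00286g00240.1 was also lost without *ram1* mycorrhizal replicate 2 (0.0977). With only the *ram1* libraries in the fit, *RAM2* (0.135), Peaxi162Scf00286g00240.1 (0.0614) and Peaxi162Scf00378g00624.1 (0.0575) were not called. Nor was Peaxi162Scf00286g00240.1 in limma-voom (0.121), or *RAM2* with the replicate number as a block (0.0739). Between the control groups, Peaxi162Scf00286g00240.1 was lower in *ram1* than in W115 (log2 fold change -4.47, adjusted p = 0.000389, edgeR).

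Over the 12 libraries, the log2 CPM of AMT2 correlated with those of Peaxi162Scf00341g00515.1 (r = 0.997), Peaxi162Scf00718g00117.1 (r = 0.98) and Peaxi162Scf00341g00054.1 (r = 0.97), and those of the partially induced genes Peaxi162Scf00282g00327.1 and Peaxi162Scf01286g00133.1 with each other (r = 0.92). The AMT1-type gene Peaxi162Scf00125g00122.1 ran with Peaxi162Scf00014g00010.1 (r = 0.83) and against AMT2 (r = -0.81). Outside the family, among 15881 genes with a mean of at least 100 reads in a group, the profiles most like AMT2 belonged to a basic blue protein (Peaxi162Scf00011g00236.1, r = 0.997), a conserved hypothetical protein (Peaxi162Scf00107g00204.1, r = 0.997), a GDSL esterase/lipase (Peaxi162Scf00300g00044.1, r = 0.997), an acidic endochitinase (Peaxi162Scf01254g00005.1, r = 0.996) and a chitinase 2 (Peaxi162Scf00836g00039.1, r = 0.996). These values describe libraries of 4 groups and rest on the contrast between mycorrhizal W115 roots and the rest.

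The profile of the AMT1-type gene Peaxi162Scf00077g00125.1 was most like that of a nitrite reductase (Peaxi162Scf00016g01734.1, r = 0.982), an enzyme that reduces nitrite to ammonium. It was followed by 2 genes of the RWP-RK family of plant regulators, to which the NIN-like proteins of nitrate signalling in Arabidopsis belong (Peaxi162Scf00711g00212.1, r = 0.980, and Peaxi162Scf00362g00156.1, r = 0.968), a nodulin MtN21/EamA-like transporter (Peaxi162Scf00421g00332.1, r = 0.966) and a thaumatin superfamily protein (Peaxi162Scf00328g00097.1, r = 0.964). The nitrite reductase had 26.0, 10.0 and 9.22 CPM in mycorrhizal *ram1* roots, 74.1, 72.1 and 19.7 CPM in *ram1* control roots, 44.4, 39.7 and 49.5 CPM in mycorrhizal W115 roots, and 56.1, 71.7 and 71.9 CPM in W115 control roots. As with the transporter, mycorrhizal replicate 1 was high and control replicate 3 low within *ram1*.

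**Figure D4:**
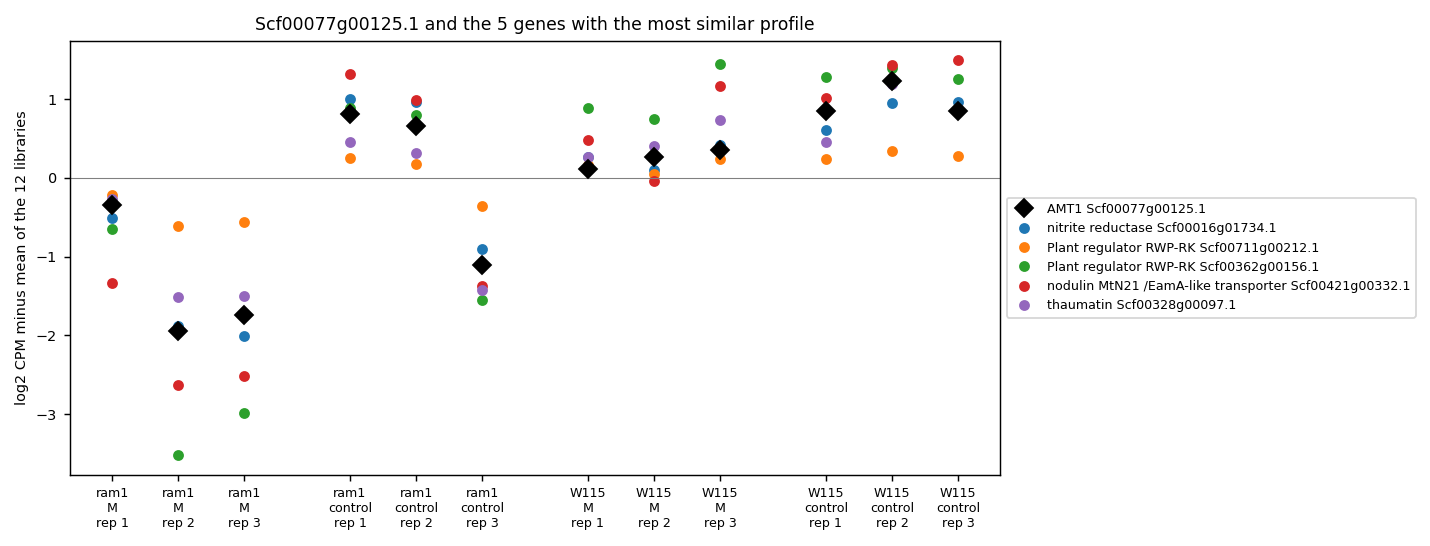
Log2 CPM minus the mean over the 12 libraries (y axis) of the AMT1-type gene Peaxi162Scf00077g00125.1 (black diamonds) and of the 5 genes chosen for the highest correlation with it (coloured circles); each position on the x axis is 1 library and M stands for mycorrhizal. In *ram1* control replicate 3 all 6 genes lie below 0, whereas they lie above 0 in the other 2 *ram1* control replicates.

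Genes that assimilate nitrogen were taken from the annotation by their descriptions. The descriptions sought were nitrate and nitrite reductase, glutamine synthetase, glutamate synthase, glutamate dehydrogenase and asparagine synthetase. Of these genes, 25 were tested. In W115, 3 were higher and 0 lower in mycorrhizal roots, against 12.6% and 9.14% of all tested genes. The median log2 fold change of the list was -0.08, against 0.00 over all tested genes. Of the 23 genes of the list that reached 10 reads in a control group, 1 was higher, against 11.3% of all genes with that property. The other 2 higher genes, both described as glutamine synthetase 1.3, reached 10 reads in no control group. They entered because they were high in mycorrhizal W115 roots, so their count carries no further evidence. Peaxi162Scf00314g00419.1 had 0.311, 1.13 and 0.271 CPM in mycorrhizal *ram1* roots, at most 0.297 CPM in *ram1* control roots, 75.3, 78.6 and 109.7 CPM in mycorrhizal W115 roots and at most 0.235 CPM in W115 control roots (log2 fold change in W115 9.24 ± 0.53, adjusted p = 3.77e-07, edgeR). Its level was thus near 0 outside mycorrhizal W115 roots, as for AMT2. Peaxi162Scf00571g00521.1 averaged 22.4 CPM in mycorrhizal W115 roots and 0.104 CPM in W115 control roots (adjusted p = 3.04e-05, edgeR), and the asparagine synthetase gene Peaxi162Scf00212g00516.1 averaged 91.5 CPM and 62.3 CPM (log2 fold change 0.55 ± 0.11, adjusted p = 0.00464). The glutamine synthetase gene Peaxi162Scf00958g00520.1 did not pass the test (0.55 ± 0.25, adjusted p = 0.159), nor did the most highly expressed ones of the list, Peaxi162Scf00562g00216.1 (0.06 ± 0.13, adjusted p = 0.798) and Peaxi162Scf01424g00014.1 (0.07 ± 0.54, adjusted p = 0.95).

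In *ram1*, 0 genes of the list were higher and 5 were lower in mycorrhizal roots, against 4.91% and 5.17% of all tested genes. The median was -0.25, against 0.05 over all tested genes. The 5, named here after their values were seen, were a nitrate reductase (Peaxi162Scf00476g00046.1), 2 nitrite reductases (Peaxi162Scf00003g01630.1 and Peaxi162Scf00016g01734.1), the plastid glutamine synthetase (Peaxi162Scf00095g00720.1) and a ferredoxin-dependent glutamate synthase (Peaxi162Scf00076g00532.1). The nitrate reductase had 100.1, 38.3 and 40.4 CPM in mycorrhizal *ram1* roots and 643, 609 and 101 CPM in *ram1* control roots (log2 fold change -2.92 ± 0.63, adjusted p = 0.0214, edgeR). None of the 25 genes was called without *ram1* mycorrhizal replicate 2 or 3 or *ram1* control replicate 1 or 2, 2 were called without W115 mycorrhizal replicate 1 or 2 or W115 control replicate 2, and 8 without *ram1* control replicate 3. The interaction was called for 3 genes of the list, against 5 without *ram1* mycorrhizal replicate 1 and 7 without *ram1* control replicate 3. The 3 were lower in *ram1*, against 5.17% of all tested genes, namely Peaxi162Scf00314g00419.1 (adjusted p = 0.0172, edgeR, and 0.214 without *ram1* control replicate 3), Peaxi162Scf00212g00516.1 (adjusted p = 0.0131) and the nitrate reductase (adjusted p = 0.0441). The first of these entered through mycorrhizal W115 roots.

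Of 12 plasma membrane H+-ATPase genes tested, 2 were higher and 1 was lower in mycorrhizal W115 roots, against 12.6% and 9.14% of all tested genes. Peaxi162Scf00346g00215.1 had 37.1, 24.3 and 24.9 CPM in mycorrhizal *ram1* roots, 70.7, 56.0 and 38.0 CPM in *ram1* control roots, 253.5, 228 and 279 CPM in mycorrhizal W115 roots, and 62.3, 57.4 and 53.5 CPM in W115 control roots. It rose with the fungus in W115 (log2 fold change 2.14 ± 0.22, adjusted p = 5.44e-05, edgeR) and fell in *ram1* (-0.93 ± 0.22, adjusted p = 0.0297), a difference of -3.06 ± 0.31 (adjusted p = 0.000221). The fall in *ram1* was lost without *ram1* mycorrhizal replicate 2 (adjusted p = 0.0995) or 3 (0.110), or *ram1* control replicate 1 (0.102) or 2 (0.0785). Peaxi162Scf00689g00558.1 also rose in W115 (0.80 ± 0.19, adjusted p = 0.0101, edgeR), and Peaxi162Scf00009g00434.1 fell by 0.53 ± 0.14 (adjusted p = 0.0178), but not without W115 mycorrhizal replicate 3 (adjusted p = 0.0707) or W115 control replicate 1 (0.0611). Peaxi162Scf00287g01112.1 (adjusted p = 0.0743), Peaxi162Scf01054g00032.1 (0.605) and Peaxi162Scf00574g00092.1 (0.271) did not pass the test in W115. In *ram1*, 1 gene of the list was higher and 3 were lower in mycorrhizal roots, against 4.91% and 5.17% of all tested genes, and none was called without *ram1* mycorrhizal replicate 2 or 3 or *ram1* control replicate 1 or 2.

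By their IDs, the 10 genes lie on 8 scaffolds, and 3 of them on scaffold Scf00341. Of the other 16 tested genes of that scaffold, 2 were higher in mycorrhizal W115 roots, a share like that of all tested genes (12.6%). Peaxi162Scf00165g00213.1 follows in the numbering directly after Peaxi162Scf00165g00212.1, the strigolactone biosynthesis gene *D27* of the study, which was looked at after this neighbourhood was seen. *D27* had 34.3, 38.5 and 35.1 CPM in mycorrhizal *ram1* roots, 28.4, 24.8 and 17.8 CPM in *ram1* control roots, 86.4, 89.3 and 105.9 CPM in mycorrhizal W115 roots, and 44.8, 49.9 and 38.2 CPM in W115 control roots. Both genes rose with the fungus in W115, *D27* by 1.08 ± 0.16 on the log2 scale (adjusted p = 0.000742, edgeR). In *ram1*, *D27* also rose (0.60 ± 0.16, adjusted p = 0.0442, edgeR) with no call for the interaction (adjusted p = 0.215), whereas its neighbour had no response that passed the test. The calls of *D27* were not repeated under other settings of the fit.

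Below the limit of reads were 2 further genes, both described as ammonium transporter 1. Peaxi162Scf00789g00533.1, with a mean of 2.67 reads in its highest groups, had 0 reads in mycorrhizal *ram1* roots, 1 read over the 3 *ram1* control libraries, 3, 4 and 1 reads in mycorrhizal W115 roots and 2, 2 and 4 reads in W115 control roots. Peaxi162Scf00043g00216.1 had 2 reads over the 12 libraries.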

How the data were processed

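Roots were sequenced as paired-end Illumina libraries. Per the methods and file headers, the authors aligned reads to *P. axillaris* transcripts in CLC Genomics Workbench and deposited unnormalized counts (total gene reads, an intact pair counted as 2) and RPKM (reads per length and depth). The authors' fold changes, p-values and other columns were not used, among them 16 columns of per-sample values or means. Counts were scaled with TMM and fitted in edgeR 4.0.16 (R 4.3.3) with 1 quasi-likelihood model of 4 groups of 3. Tested were 22954 genes with a mean of at least 10 reads in a group. Each contrast was adjusted after Benjamini and Hochberg (threshold 0.05). Log2 CPM used a prior count of 2. SE is the log2 fold change divided by the square root of F. Groups at 0 were set to 3 reads over the group, and 1 to 3 reads carry an exact 95% counting interval. RPKM were used between genes and not tested. From the nitrogen assimilation and H+-ATPase lists, up to 4 genes with the smallest p in W115 and up to 2 more with the highest RPKM are named; genes named outside this rule are marked in the text. Members and lists were chosen with earlier results of these data known. Nothing in the labels shows that replicates were separate experiments, so p-values measure the spread between these samples. Alternatives were DESeq2 1.42.0, limma-voom (limma 3.58.1), other scalings, filters, unique reads, robust dispersion, a replicate block, fewer libraries and each library left out. The scripts were tested on simulated data.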

Additional observations from a re-analysis of the deposited data

Results flagged for a closer look

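The response to the fungus differed between *ram1* and W115 by the interaction test in edgeR for 5 of the 10 ammonium transporter genes, beside 9.21% of all tested genes. It was higher in *ram1* for the AMT1-type gene Peaxi162Scf00125g00122.1 (difference of log2 fold changes 1.17, adjusted p = 0.00898). It was lower in *ram1* for AMT2, Peaxi162Scf00341g00514.1 (-10.16, adjusted p = 0.00849, a fitted value on 8 reads outside mycorrhizal W115 roots), for Peaxi162Scf01286g00133.1 (-4.48, adjusted p = 0.00307), for Peaxi162Scf00165g00213.1 (-3.36, adjusted p = 0.0126) and for Peaxi162Scf00282g00327.1 (-2.18, adjusted p = 0.0108). AMT2 and Peaxi162Scf00165g00213.1 reached the limit of reads only in mycorrhizal W115 roots, so their part of the count carries no further evidence. The call of AMT2 was lost without *ram1* control replicate 1 (adjusted p = 0.0603, edgeR), and that of Peaxi162Scf00282g00327.1 in limma-voom (adjusted p = 0.0588).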

How the results depend on the processing

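In W115, 6 to 7 of the 10 ammonium transporter genes were higher and 1 to 2 lower under every alternative run. Replicate numbers did not pair the samples (r of -0.23 to 0.36 over 18 pairs of same-numbered libraries, 4 above 0.1); with the number as a block, 4745 genes were called in W115, against 4984 without it, and 7 ammonium transporter genes, against 8, since Peaxi162Scf00341g00054.1 had an adjusted p of 0.0532. In *ram1*, 2313 genes were called, against 3688 with DESeq2, 416 with only the 6 *ram1* libraries and 575 to 3918 on leaving out 1 library. Of the ammonium transporter genes 2 were called, against 2 to 4 on leaving out 1 library. With only the 6 *ram1* libraries 1 was called, since Peaxi162Scf01286g00133.1 was lost (adjusted p = 0.0572). The interaction gave 2113 genes, against 3251 with DESeq2 and 1253 to 3289 on leaving out 1 library. Leaving out both libraries that stood apart, chosen after seeing the data, gave 5657 genes and 5 ammonium transporter genes in *ram1* and 4222 genes for the interaction; Peaxi162Scf00077g00125.1 then had a log2 fold change of -2.57 in *ram1* (adjusted p = 1.91e-05), and it passed the test in *ram1* with DESeq2 (adjusted p = 0.0169). Uncalled values changed sign on leaving out 1 library for Peaxi162Scf00165g00213.1 in *ram1* (-0.77 to 0.35) and for Peaxi162Scf00282g00327.1 between the control groups (-0.17 to 0.20). Of the nitrogen assimilation list, 5 genes were called in W115 with only the 6 W115 libraries, against 3. The causes were not tested.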
